A study of Mus musculus with 10 samples.

Results

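The 77 genes described here encode the proteins of the cytosolic ribosome. They were chosen by name from a table of 12535 genes: every symbol that starts with Rpl or Rps followed directly by a digit, plus Rplp0, Rplp1, Rplp2 and Rpsa. A further 9 names that start alike were left out, namely Rps19bp1 and 8 genes of the Rps6k kinase family. The 77 genes comprise 40 of the large (60S) subunit, 30 of the small (40S) subunit, 3 of the stalk of the large subunit, and 4 paralogs (Rpl7l1, Rpl22l1, Rpl36al and Rps27l), which are second genes for a protein like that of Rpl7, Rpl22, Rpl36a and Rps27. All 77 had at least 1 FPKM (sequenced fragments for each kilobase of a gene, relative to library size) in at least 3 of the 10 libraries and were tested.

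The libraries were made from mouse macrophages sorted as CD45+CD11b+F4/80+ cells, the surface signature of leukocytes, myeloid cells and macrophages. Resident macrophages (n = 4) came from the pancreas of healthy C57/BL6 WT mice. Tumour-associated macrophages (TAM) came from pancreatic tumours 14 days after cells of the KPC organoid line MT4, a single line of mouse pancreatic ductal adenocarcinoma, had been placed into the organ. Control TAM (n = 3) carried the genotype Ahr fl/fl, titled WT, and the TAM titled Ahr cKO (n = 3) the genotype Ahr fl/fl Lys M, in which a Cre driven from the lysozyme locus acts in myeloid cells on the gene of the aryl hydrocarbon receptor. Both TAM groups thus carried the floxed allele and the resident group did not, so that tumour, floxed allele and tissue state cannot be told apart between resident cells and TAM. A Y-linked transcript, given at the end of these results, also differed between resident cells and TAM. Gene-level Ahr was at 3.84 to 4.46 FPKM in resident libraries, 6.91 to 7.51 in control TAM and 9.65 to 11.2 in the libraries titled cKO. Reads of exons that Cre leaves in place enter this value too, so it is no test of the deletion, and these libraries are named cKO-labelled TAM. All 13 macrophage markers of the list were present in the table, among them Adgre1, which encodes F4/80, at means of 706, 590 and 497 FPKM in resident, control TAM and cKO-labelled TAM libraries. Their summed level was 48147 to 49349, 32617 to 32814 and 25738 to 26137 FPKM in these groups, with 4 of 13 higher and 9 lower in control TAM against resident cells, and 4 higher and 6 lower in cKO-labelled against control TAM (limma adjusted p under 0.05). Over all 11127 tested genes, 39.0% were higher and 38.1% lower in the former comparison, and 20.5% and 19.1% in the latter. The part of these markers in the results was not tested.

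Every ribosome holds 1 copy of most of these proteins, and a cell makes the large and small subunits in equal number. Ribosomal protein mRNAs are among the classical terminal oligopyrimidine mRNAs: they start with a cytosine followed by a run of pyrimidines, and the kinase mTOR adjusts their translation through this start. Making ribosomes is a large cost of cell growth, and growing and dividing cells are known to raise it. RNA levels as measured here say nothing of how far these mRNAs were translated.

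Start-site sequences of some members that the results below turn on are shown first, with pyrimidine runs near the annotated start marked. A marked run need not begin at that start, and that of Rpl4 ends before it. Whether these runs open the transcripts was not tested. RefSeq (GRCm38.p6) gave a promoter for 58 of the 77 members. Each sequence runs 5′ to 3′ on the gene's strand, from 40 bases before the annotated start to 20 bases from it onward. Capitals mark pyrimidine runs of at least 7 bases that open with C, and the letters CCGGAAG on either strand, a core of the binding motif of ETS-family factors such as GABP.

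Rpl4 (chr9:64173347-64173406, plus strand), which encodes uL4 of the large subunit and had the highest level of all members, and Rps9 (chr7:3704001-3704060, plus strand), uS4 of the small subunit, moved in opposite directions between the TAM groups.
Rpl4: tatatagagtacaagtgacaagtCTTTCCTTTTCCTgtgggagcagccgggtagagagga
Rps9: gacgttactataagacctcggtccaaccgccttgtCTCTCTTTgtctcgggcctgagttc

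Rplp2 (chr7:141447611-141447670, plus strand), a stalk protein, and Rpl38 (chr11:114668540-114668599, plus strand), eL38 of the large subunit, were among the members that were higher in TAM than in resident cells.
Rplp2: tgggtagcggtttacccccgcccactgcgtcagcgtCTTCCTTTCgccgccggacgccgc
Rpl38: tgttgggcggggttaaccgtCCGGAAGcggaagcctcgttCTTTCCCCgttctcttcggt

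Rps3a1 (chr3:86142649-86142708, minus strand), eS1 of the small subunit, has no such run in this window, and Rpl36al (chr12:69184048-69184107, minus strand), the paralog of Rpl36a with the largest change, has none in the 60 bases printed, although a run was found farther from its start.
Rps3a1: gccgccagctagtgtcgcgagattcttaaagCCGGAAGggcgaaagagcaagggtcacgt
Rpl36al: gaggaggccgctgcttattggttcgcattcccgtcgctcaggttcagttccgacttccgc

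Pyrimidine runs were common around the starts of the members. A run of at least 7 pyrimidines opening with C lay within 50 bases on either side of the start, on the gene's strand, in 51 of 58 members (87.9%). It did so in 44.5% of all 27025 genes with a RefSeq promoter. In this paragraph all genes means these 27025, which are not limited to the genes with FPKM values. Over the whole 300-base window and both strands, CCGGAAG was found in 25 of 58 members (43.1%, against 9.93% of all genes) and ATGGCG, which matches the core of the YY1 motif and can also be the start codon with its context, in 18 (31.0%, against 10.2%). The TATA box letters TATAAA were found in 7 (12.1%, against 15.7%). The letters GCGTG, the core to which the aryl hydrocarbon receptor binds, were found in 34 (58.6%, against 35.2%), beside a median GC content of 57.5% in the members' windows and 52.75% in all. These matches describe letters and are no evidence of a bound factor. Of the 51 members with a pyrimidine run, 36 passed the test as higher in control TAM against resident cells, with a median log2 change of 0.29, and of the 7 without one, 6 were higher, with a median of 0.36.

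Levels in FPKM, a measure per length, covered a wide range for proteins that the ribosome mostly holds in equal number. The mean over all 10 libraries was highest for Rpl4 at 232 FPKM, followed by Rps14 at 202, Rps9 at 177, Rplp0 at 166 and Rpl8 at 156. It was lowest for Rpl12 at 1.196, Rpl21 at 1.31, Rpl5 at 1.82, Rpl36a at 1.90 and Rps6 at 2.12 FPKM. Thus 8 members were at 100 FPKM or more, 39 between 10 and 100, and 30 under 10, with a ratio of 194 between the extremes. This spread was far larger than any difference between the groups.

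Low levels went with many processed pseudogenes, the intronless gene copies for which ribosomal protein genes are known. Of the 77 members, 76 share at least 1 exact run of 50 bases of their coding transcripts with an annotated pseudogene (GENCODE M21, GRCm38). The median is 8 pseudogenes, and the largest number is 121, for Rpl7a. The median level was 75.6 FPKM for the 11 members with 0 to 2 such pseudogenes, 17.5 for the 34 with 3 to 9, 7.46 for the 23 with 10 to 19 and 5.20 for the 9 with 20 or more. Across the 77 genes, the Spearman correlation between level and number of pseudogenes was -0.50, a description only, since genes are not independent. The Spearman correlation between that number and the log2 change of control TAM against resident cells was 0.14. How reads that fit several places were counted is not given in the sources used here, and its part in the levels was not tested. The ratio of FPKM of 1 gene between groups does not depend on the gene's own length. The fitted change of a low gene does in part, through the 1 FPKM added before the logarithm. An order of levels between genes also carries the gene lengths behind the FPKM, which best matched the longest annotated transcript.

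**Figure D1:**
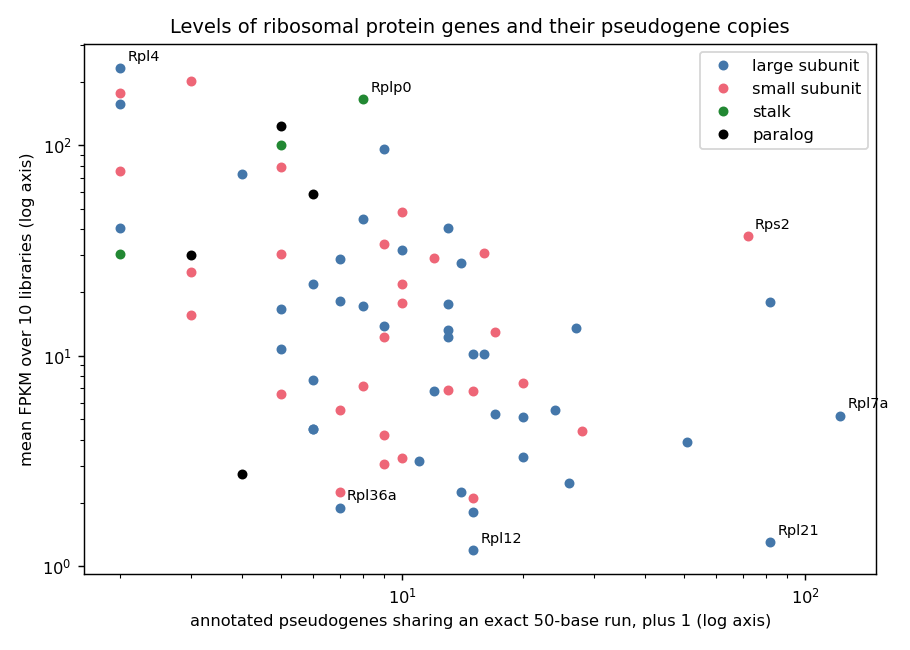
Mean FPKM of 75 of the 77 genes over 10 libraries (log axis) against the number of annotated pseudogenes that share an exact 50-base run with it, plus 1 (log axis), coloured by subunit, stalk or paralog. Rpl4 sits at the upper left, and Rpl21, with 81, at the lower right.

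The first comparison asked how TAM of control tumours differ from macrophages of the healthy pancreas. Most ribosomal protein genes were modestly higher in control TAM: 55 of 77 were higher and 2 lower by limma (adjusted p under 0.05), against a background of 39.0% of all 11127 tested genes higher and 38.1% lower. The median log2 change of the members was 0.28, a 1.21-fold difference, beside 0.002 over all tested genes. Changes were fitted as log2(FPKM + 1), and the added 1 shrinks those of low genes. On that scale no member changed by 2-fold or more, 67 of 77 changed by less than 1.5-fold, and 70 of 77 changes were positive. With a limit of 1.5-fold added to the test, 10 members were higher and 0 lower. That is a smaller share than the 2071 higher and 1742 lower of all 11127 tested genes. The groups did not overlap for 48 members that were higher and for 1 that was lower, against 37.3% and 36.5% of all genes (73.9% in either direction). When each library was rescaled to a common total, the median over all genes moved from 0.002 to 0.18 and that of the members from 0.28 to 0.49, with 70 members higher and 0 lower. In that rescaled fit 5766 of all 11127 tested genes were higher and 2986 lower.

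**Figure D2:**
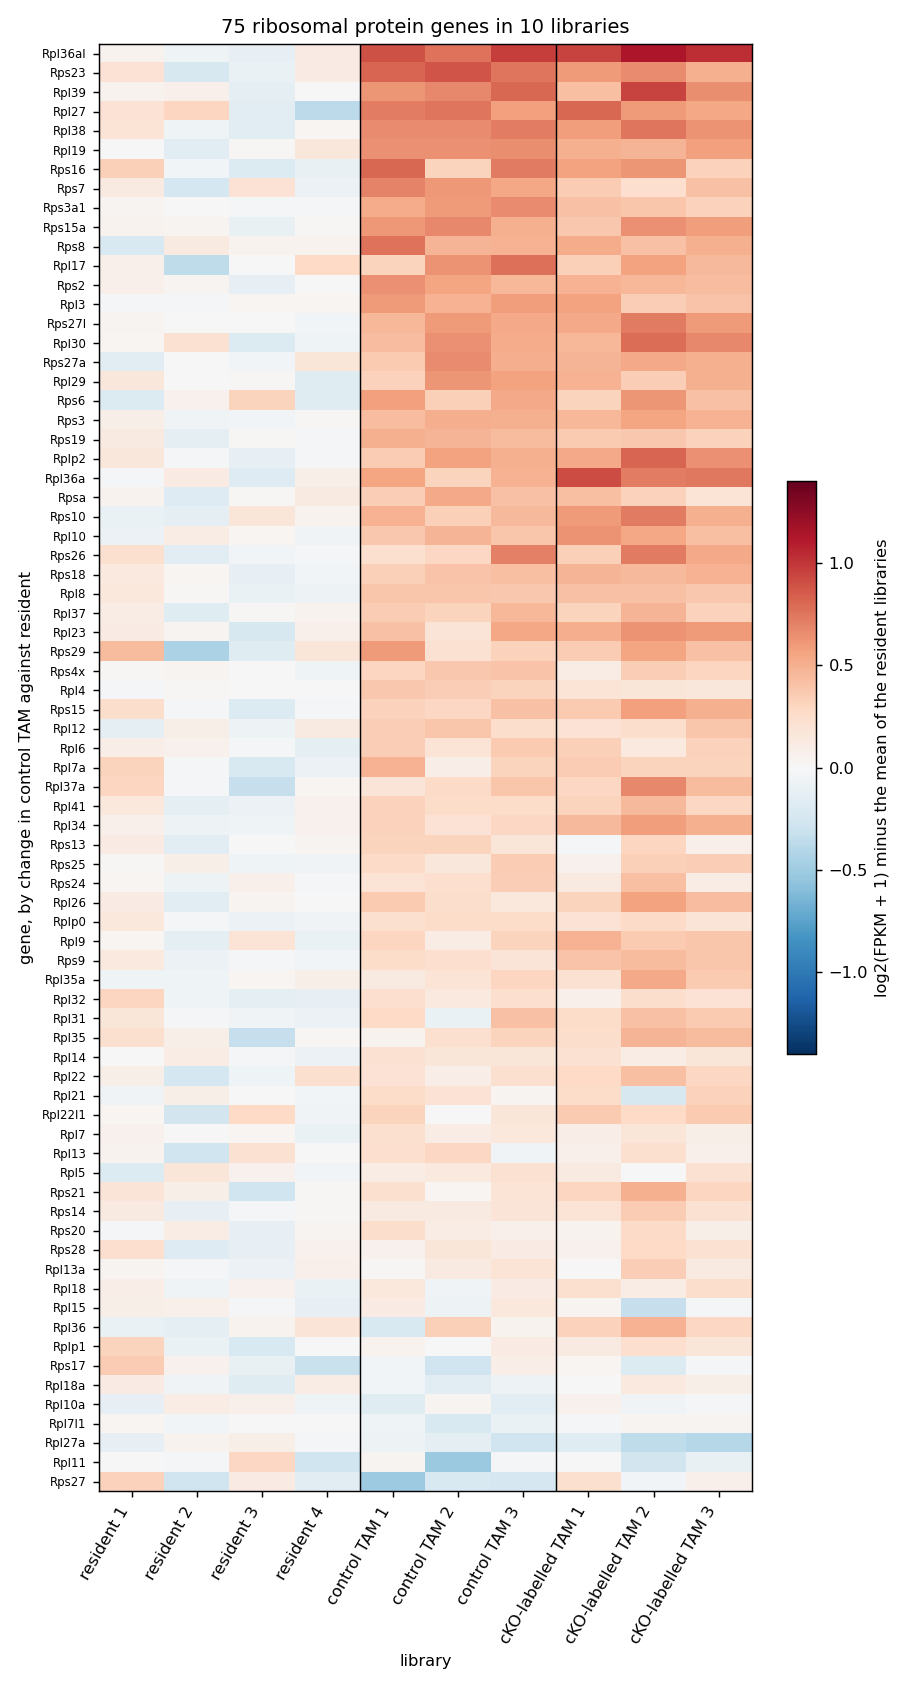
Log2(FPKM + 1) of 75 of the 77 genes in each of the 10 libraries, minus the mean of the 4 resident libraries, with genes ordered by their change in control TAM. Red is higher and blue lower than the resident mean, and the vertical lines separate the 3 groups. Most rows are red in all 6 TAM libraries, from Rpl36al at the top, and the few blue rows stand at the bottom with Rps27.

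The summed level of the family was also higher in TAM. It was 2503, 2233, 2199 and 2279 FPKM in resident cells, 2831, 2820 and 2877 in control TAM, and 2837, 3062 and 2897 in cKO-labelled TAM. No TAM library fell into the resident range, and the lowest cKO-labelled library lay within the range of control TAM. As a share of all FPKM in a library the family made up 0.42% to 0.46% in resident cells, 0.61% to 0.62% in control TAM and 0.59% to 0.62% in cKO-labelled TAM. The ratio of the summed small-subunit to the summed large-subunit level was 1.07 ± 0.0214 (SD, n = 4) in resident cells, 1.06 ± 0.0181 (n = 3) in control TAM and 1.11 ± 0.0252 (n = 3) in cKO-labelled TAM, with overlapping ranges between resident cells and control TAM and every cKO-labelled library above both. This ratio was not tested. In bulk samples more RNA per cell and more cells that are rich in such RNA cannot be told apart.

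**Figure D3:**
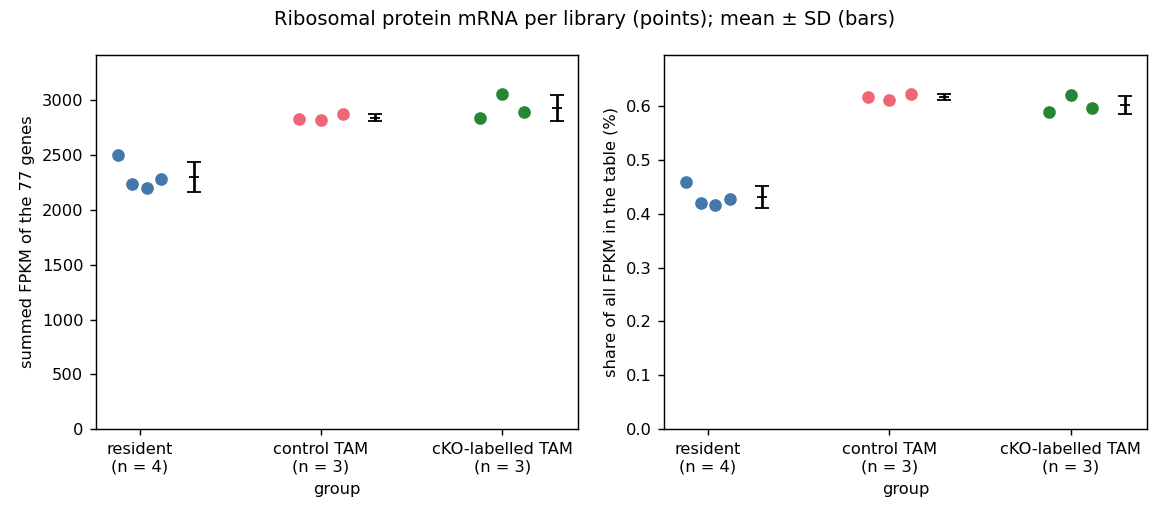
Summed FPKM of the 77 genes (left) and their share of all FPKM in the table (right, in percent) for each library as a point, with mean ± SD beside it for resident (n = 4), control TAM (n = 3) and cKO-labelled TAM (n = 3). The 4 resident libraries sit between 2199 and 2503 FPKM, and the 6 TAM libraries between 2820 and 3062.

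Among the 30 small-subunit genes, 25 were higher in control TAM, 1 was lower and 4 did not pass the test, with a median log2 change of 0.38. Rps3a1 was at 39.6, 38.5, 38.2 and 38.1 FPKM in resident cells, 55.8, 58.8 and 61.8 in control TAM, and 51.6, 51.0 and 48.4 in cKO-labelled TAM. Its 3 groups did not overlap, and control TAM exceeded resident cells by 0.59 ± 0.04 (SE) log2 units (limma adjusted p = 1.83e-09). Rps7, which encodes eS7, stood at 11.3, 8.55, 11.96 and 9.69 FPKM in resident cells and at 17.3, 16.1 and 15.4 in control TAM (log2 change 0.61 ± 0.09, limma adjusted p = 1.11e-05). Rps3, the uS3 protein at the mRNA entry channel, stood at 64.1, 58.4, 59.0 and 61.2 FPKM in resident cells and at 82.1, 86.5 and 85.8 in control TAM, with no overlap. Rpsa, the uS2 protein also known as the laminin receptor, rose from 3.57 ± 0.397 (SD, n = 4) to 5.15 ± 0.390 FPKM (n = 3). Rps23, the uS12 protein of the decoding centre, had the largest log2 change of the subunit at 0.81 ± 0.09 but a low level, from 4.77 ± 0.768 to 9.07 ± 0.453 FPKM. It was named after its values were seen.

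The 1 small-subunit gene that was lower was Rps27, which encodes the zinc-finger protein eS27. It was at 4.27, 2.47, 3.57 and 2.77 FPKM in resident libraries and at 1.97, 2.65 and 2.58 in control TAM, so the groups overlapped (log2 change -0.32 ± 0.13, limma adjusted p = 0.0316). With 17 to 59 recovered reads per library it is among the thinly covered members, and the call was lost without resident replicate 1 or 3, without control TAM replicate 1, with array weights and when rescaled (adjusted p = 0.239).

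Of the 40 large-subunit genes, 26 were higher in control TAM, 0 were lower and 14 did not pass the test, with a median log2 change of 0.26. Rpl38 was at 18.2, 15.1, 14.1 and 16.2 FPKM in resident cells, against 25.7, 25.7 and 26.7 in control TAM (log2 change 0.68 ± 0.07, limma adjusted p = 1.66e-07). Rpl39, a very small protein of the exit tunnel, was at 10.2, 10.4, 8.92 and 9.89 FPKM and at 15.6, 16.3 and 17.95 (0.70 ± 0.10). Rpl19, which encodes eL19, was at 9.94, 8.85, 10.1 and 11.2 FPKM and at 16.1, 16.2 and 16.3 (0.64 ± 0.06). In each of the 3 genes every control TAM library lay above every resident library. The most abundant member, Rpl4, was at 206, 210, 208 and 207 FPKM in resident cells, against 269, 263 and 258 in control TAM. It rose by less on the log2 scale (0.34 ± 0.03), with narrow spread in both groups (limma adjusted p = 8.85e-09). Rpl8, the uL2 protein beside the peptidyl transferase centre, rose from 132 ± 10.7 (SD, n = 4) to 172 ± 1.02 FPKM (n = 3).

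Large-subunit genes that did not pass the test included Rpl5 and Rpl11, whose proteins bind 5S rRNA and are known to restrain Mdm2. Rpl5 was at 1.67 ± 0.277 FPKM in resident cells and 1.96 ± 0.114 in control TAM (limma adjusted p = 0.136). Rpl11, named for this role after its values were seen, was at 3.41 ± 0.705 and 2.93 ± 0.772 FPKM (adjusted p = 0.256). At these low levels the spread between libraries was large.

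The stalk, through which translation factors are recruited to the large subunit, was uneven. Rplp0, its base, was at 167, 148, 141 and 145 FPKM in resident libraries and at 175, 179 and 179 in control TAM (log2 change 0.25 ± 0.05, limma adjusted p = 0.000163). Rplp2 was at 26.1, 22.7, 21.4 and 23.0 FPKM and at 29.9, 34.7 and 33.2 (0.47 ± 0.07, limma adjusted p = 2.63e-05). Rplp1, its partner in the stalk, was at 118, 88.9, 82.0 and 94.5 FPKM and at 98.1, 95.4 and 103, with overlapping groups, and did not pass the test (0.05 ± 0.08, limma adjusted p = 0.562). Resident replicate 1 was the highest of its group for Rplp1 and for 43 of the 77 members.

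Control TAM against resident cells gave 2 of the 4 paralogs higher and 1 lower, and 1 did not pass the test. Rpl36al (ENSMUSG00000049751, GRCm38 chr12:69182731-69184083, minus strand) was at 19.6, 18.1, 17.4 and 20.5 FPKM in resident cells, 35.8, 32.7 and 37.9 in control TAM, and 37.4, 42.4 and 39.8 in cKO-labelled TAM. Its log2 change of 0.87 ± 0.06 in control TAM against resident cells was the largest of all members on the log2(FPKM + 1) scale (limma adjusted p = 3.34e-09), and every TAM library lay above every resident one. As a ratio of mean FPKM, Rps23 stood first at 1.90-fold, and Rpl36al followed at 1.88-fold. The gene it is named after, Rpl36a on the X chromosome (ENSMUSG00000079435), was at 1.15, 1.36, 0.917 and 1.31 FPKM in resident libraries and at 2.20, 1.70 and 2.05 in control TAM (0.45 ± 0.09, limma adjusted p = 0.000361). It rests on 9 to 55 recovered reads per library, and 85.5% of its 50-base runs occur in other annotated genes, against 22.1% of those of Rpl36al.

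Rps27l (ENSMUSG00000036781, GRCm38 chr9:66946086-66949516, plus strand), known as a target of p53, was at 97.5, 94.9, 94.9 and 92.0 FPKM in resident libraries and at 132, 144 and 137 in control TAM (log2 change 0.53 ± 0.04, limma adjusted p = 1.61e-08). It stood far above Rps27 in FPKM. Rps27 was called lower, but with thin coverage, overlapping groups and a call lost in 6 of 21 alternative fits. Rpl7l1 (ENSMUSG00000063888, GRCm38 chr17:46773907-46782672, minus strand), a relative of Rpl7 known for a role in assembly of the large subunit, was at 60.8, 58.1, 59.7 and 59.9 FPKM in resident libraries and at 56.9, 51.1 and 55.9 in control TAM. It was the other member called lower (-0.13 ± 0.04, limma adjusted p = 0.0109), a call lost without control TAM replicate 2 (adjusted p = 0.0867) and with its sign turned when rescaled to a common total (0.08). Rpl7 itself rose slightly, from 26.0 ± 1.18 (SD, n = 4) to 29.1 ± 1.21 FPKM (n = 3). Rpl22l1 was at 2.37 ± 0.516 and 2.74 ± 0.403 FPKM (adjusted p = 0.190) and Rpl22 at 9.57 ± 1.45 and 10.8 ± 0.585 (adjusted p = 0.0883), and neither passed the test.

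**Figure D4:**
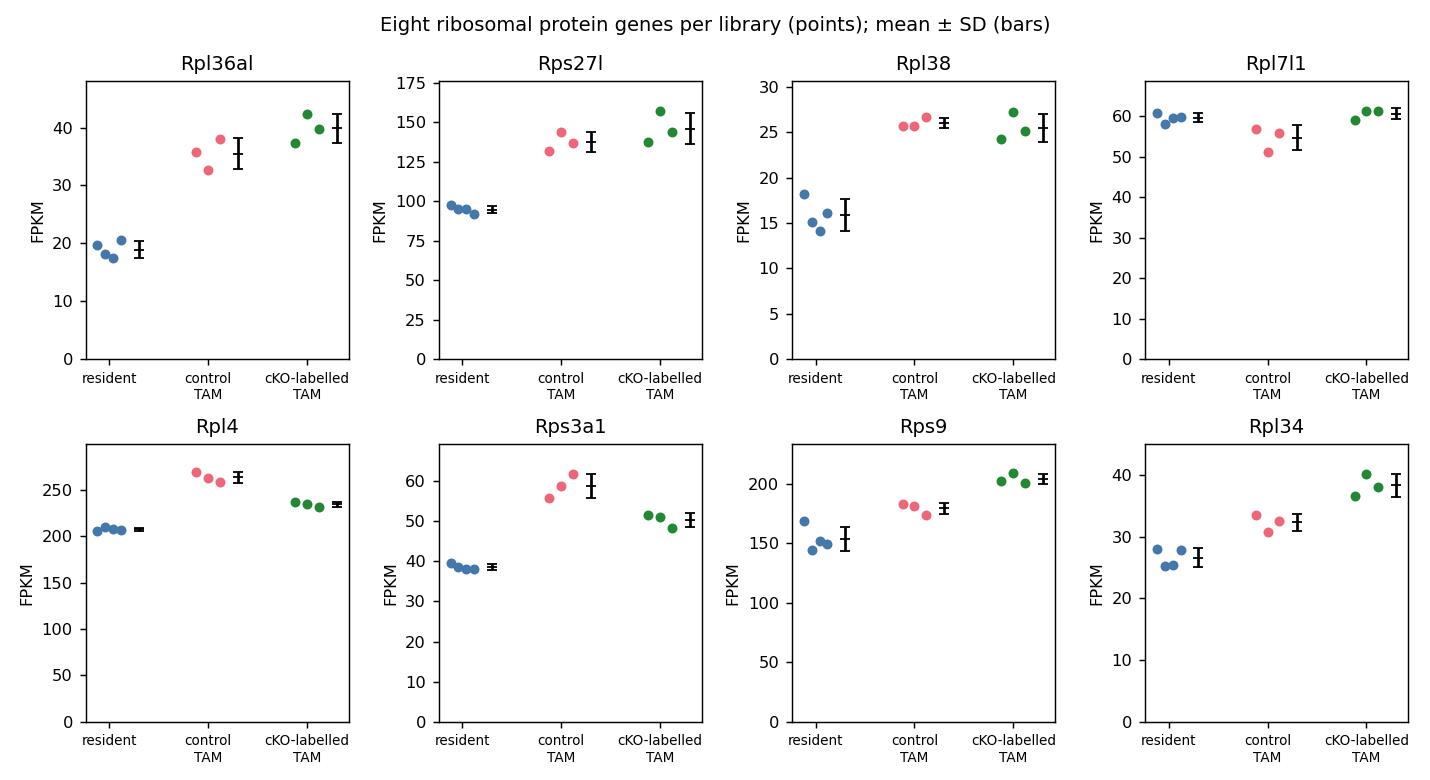
FPKM per library (points) with mean ± SD beside them for 8 members in resident macrophages (n = 4), control TAM (n = 3) and cKO-labelled TAM (n = 3), each axis starting at 0. Rpl36al, Rps27l and Rpl38 separate resident cells from both TAM groups, Rpl4 and Rps3a1 are highest in control TAM, Rps9 and Rpl34 are highest in cKO-labelled TAM, and Rpl7l1 is lowest in control TAM.

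The profile of Rpl36al over the 10 libraries was most like those of Rps3 (Pearson's r = 0.981), Rps27l (0.970) and Rpl38 (0.969). These r values describe 10 libraries in 3 groups and mostly restate the difference between resident cells and TAM.

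Libraries and coverage set the precision of these values. The recovered depth was 10834680 to 15033290 reads in resident libraries, 10126007 to 15017063 in control TAM and 16622370 to 25619899 in cKO-labelled TAM. Every cKO-labelled library was thus deeper than every other, and the part of depth in the results was not tested. The median member had 155 to 501 reads in a library. The median coefficient of variation within the resident group was 7.20% for members at 100 FPKM or more and 15.5% for those under 10, and within control TAM 2.42% and 10.8%. Among the 47 members with a mean of at least 10 FPKM, 38 were higher and 1 lower in control TAM, and among the 30 under 10 FPKM, 17 were higher and 1 lower. Of the 11 members that share with at most 2 pseudogenes, 10 were higher and 0 lower. The 2 kits named for RNA extraction are not assigned to libraries in the labels, so their part in the result was not tested.

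The second comparison asked what the cKO label changes within the tumour. Most ribosomal protein genes did not pass the test: 7 of 77 were higher and 3 lower in cKO-labelled than in control TAM (limma adjusted p under 0.05), against 20.5% and 19.1% of all tested genes. With libraries rescaled to a common total, 4 members were higher and 9 lower. In that rescaled fit 1496 of all 11127 tested genes were higher and 3054 lower. The median log2 change was 0.017, beside 0.012 over all genes, and turned to -0.05 when rescaled, as it did over all genes (-0.05). No member changed by 1.5-fold on the log2(FPKM + 1) scale. The count of higher genes also fell to 4 without cKO-labelled TAM replicate 2, the highest library of its group for 48 of the 77 members, and rose to 13, with 5 lower, when only these 2 groups were fitted. Over all tested genes, 1712 were higher and 1733 lower without that library, and 2352 and 2176 with only these 2 groups.

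The largest of the rises at 10 FPKM or more was that of Rpl36 (eL36), at 9.42, 14.2 and 11.5 FPKM in control TAM and 14.1, 16.0 and 13.7 in cKO-labelled TAM (log2 change 0.31 ± 0.11, limma adjusted p = 0.0387). Its groups overlapped, and the call was lost without either of control TAM replicates 1 and 3, without either of cKO-labelled TAM replicates 1 and 2, with no variance trend and when rescaled (adjusted p = 0.0993). Rpl34, which encodes eL34, was at 33.6, 30.8 and 32.6 FPKM and at 36.7, 40.2 and 38.1 (0.24 ± 0.05, limma adjusted p = 0.00295). Rps9, whose start is printed above with a short pyrimidine run, was at 183, 182 and 174 FPKM and at 203, 209 and 201 (0.19 ± 0.05, limma adjusted p = 0.00522). Rpl34 and Rps9 did not overlap between the groups and kept their call in each leave-one-out fit, but that of Rps9 was lost when rescaled (adjusted p = 0.0520).

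The low members Rps27 and Rpl36a changed by more on the fitted scale. Rps27 was at 1.97, 2.65 and 2.58 FPKM in control TAM and 3.94, 3.11 and 3.43 in cKO-labelled TAM (log2 change 0.41 ± 0.14, limma adjusted p = 0.0262), which brought it to the resident level. Its call was lost without cKO-labelled TAM replicate 1 or 3 or control TAM replicate 1. Rpl36a was at 2.20, 1.70 and 2.05 FPKM and at 3.11, 2.58 and 2.64 (0.34 ± 0.10, limma adjusted p = 0.0129), a call lost without cKO-labelled TAM replicate 1 or control TAM replicate 2. Rpl7l1 also returned to the resident level, at 59.0, 61.4 and 61.3 FPKM (0.15 ± 0.04, limma adjusted p = 0.0143), a call lost when rescaled (adjusted p = 0.216) and without cKO-labelled TAM replicate 2 or control TAM replicate 2.

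The 3 members that were lower in cKO-labelled TAM were Rpl4, Rps3a1 and Rps7, all higher in control TAM than in resident cells. Rpl4 stood at 269, 263 and 258 FPKM in control TAM and at 237, 234 and 232 in cKO-labelled TAM, between resident and control levels and overlapping neither (log2 change -0.17 ± 0.03, limma adjusted p = 0.000319). Rps3a1 stood at 55.8, 58.8 and 61.8 FPKM and at 51.6, 51.0 and 48.4 (-0.22 ± 0.04, limma adjusted p = 0.00108), likewise between the other groups. Rps7 stood at 17.3, 16.1 and 15.4 FPKM and at 13.5, 12.3 and 14.1 (-0.28 ± 0.09, limma adjusted p = 0.0300). The call for Rps7 was lost with no variance trend and without any 1 of control TAM replicates 1 and 2 and cKO-labelled TAM replicates 1 and 2, whereas those for Rpl4 and Rps3a1 held in every alternative fit, though neither change reached 1.5-fold.

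By role, 3 small-subunit genes were higher and 2 lower in cKO-labelled TAM, 3 large-subunit genes were higher and 1 lower, and no stalk gene passed the test. Rplp2 was at 32.6 ± 2.47 FPKM in control and 37.4 ± 3.88 in cKO-labelled TAM (SD, n = 3 each, limma adjusted p = 0.0697). Rpl36al was at 35.5 ± 2.66 and 39.9 ± 2.51 FPKM (adjusted p = 0.0670).

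**Figure D5:**
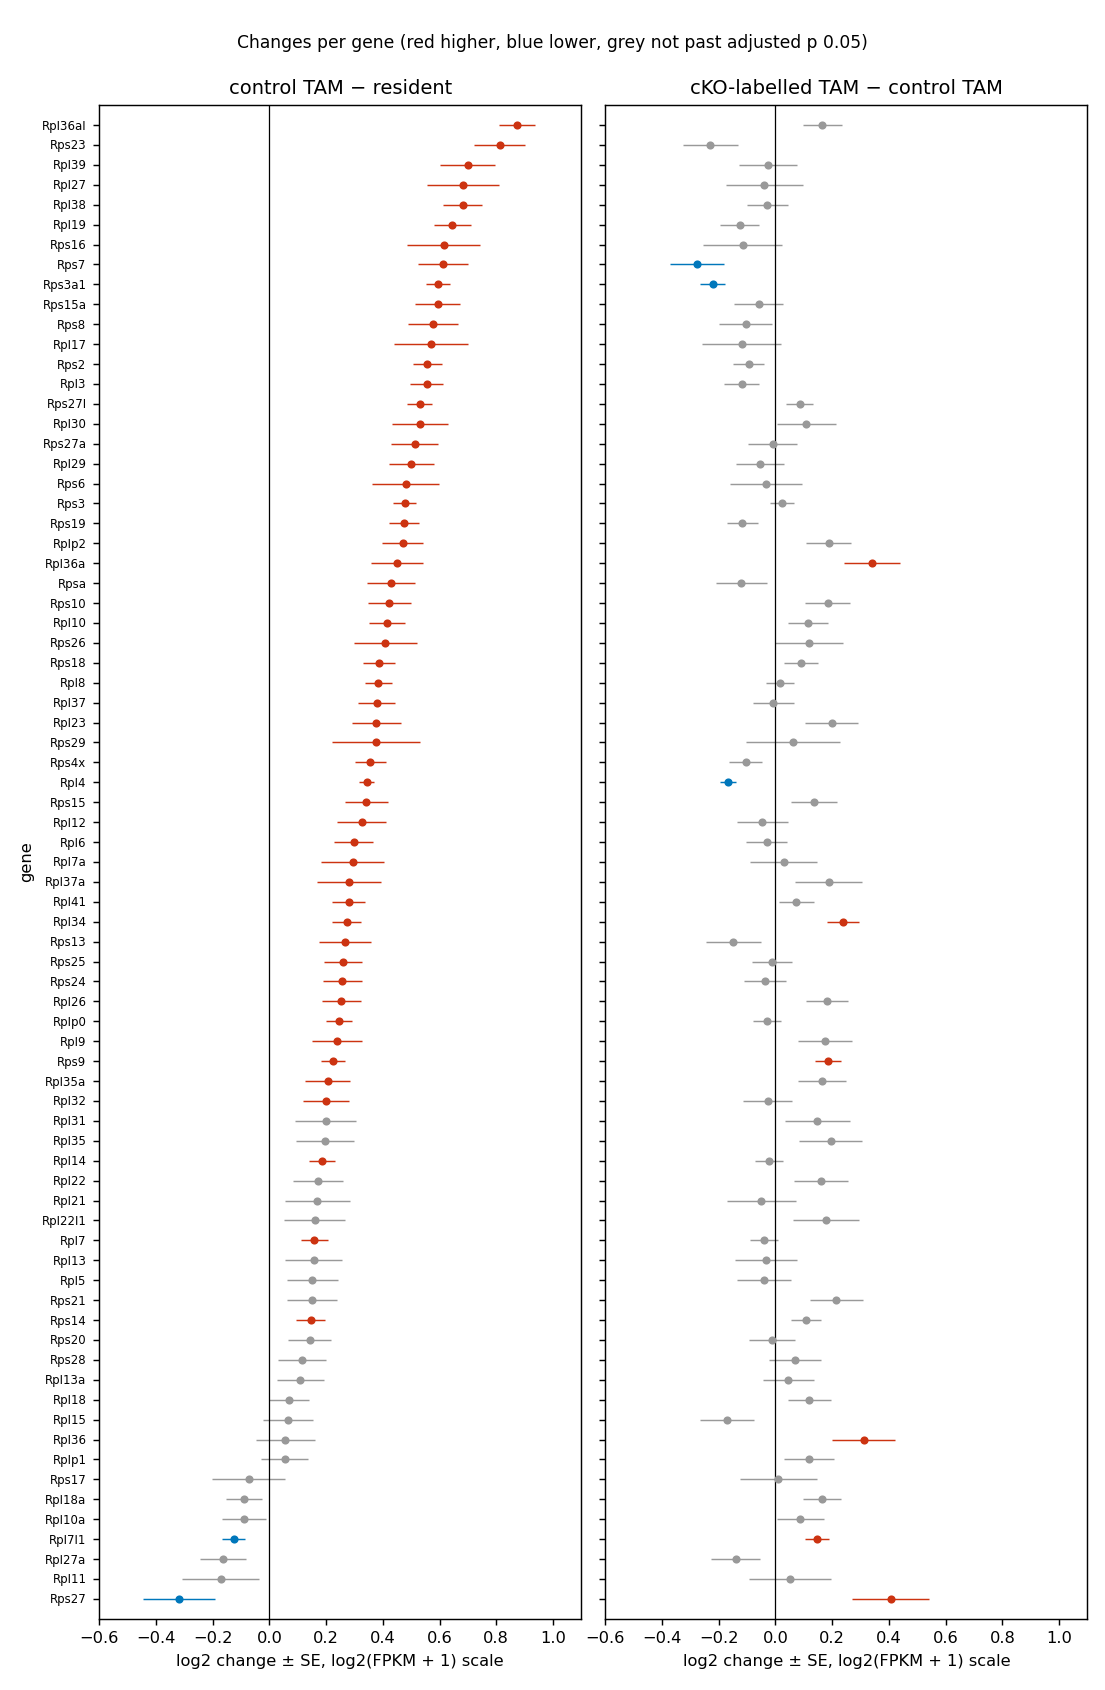
Log2 change ± SE of 75 of the 77 genes on the log2(FPKM + 1) scale, for control TAM minus resident (left) and cKO-labelled TAM minus control TAM (right), with genes in the same order in both panels. Red marks genes past an adjusted p of 0.05 and higher, blue lower and grey neither. The left panel has 53 red and 2 blue points, and the right panel 6 red and 3 blue. Over all 77 members the right-hand comparison has 4 higher and 9 lower when libraries are rescaled to a common total. Over all 11127 tested genes the rescaled fit has 1496 higher and 3054 lower.

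Set against resident macrophages, cKO-labelled TAM gave 60 members higher and 1 lower (limma adjusted p under 0.05), against 40.2% and 37.2% of all tested genes. The median log2 change was 0.37, beside 0.021 over all genes, and 0.49 beside 0.13 when rescaled. This comparison shares its resident libraries with the first and is no independent repeat of it. By role, 25 of 30 small-subunit genes, 30 of 40 large-subunit genes, 2 of 3 stalk genes and 3 of 4 paralogs were higher. Rpl36al was the 1 member past 2-fold on the log2(FPKM + 1) scale (log2 change 1.04 ± 0.06, limma adjusted p = 4.03e-10). As a ratio of mean FPKM, the thinly covered Rpl36a stood above it, at 2.34-fold against 2.11-fold, with a fitted log2 change of 0.79. Rps10, the eS10 protein, rose from 12.2 ± 1.29 (SD, n = 4) to 19.1 ± 1.64 FPKM (n = 3) and was named after its values were seen. The 1 lower member was Rpl27a (uL15), at 3.37, 3.87, 3.99 and 3.67 FPKM in resident libraries and 3.20, 2.70 and 2.59 in cKO-labelled TAM (-0.30 ± 0.08, limma adjusted p = 0.00315), without overlap.

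Fau and Rack1, which encode ribosomal proteins under other names, moved the same way. Fau, which encodes a fusion of a ubiquitin-like protein with eS30, was at 3.59 ± 0.645 FPKM (SD, n = 4) in resident cells, 7.37 ± 1.30 (n = 3) in control TAM and 8.001 ± 1.24 (n = 3) in cKO-labelled TAM. Rack1, a scaffold protein of the small subunit, was at 33.1 ± 0.946, 51.4 ± 0.541 and 49.9 ± 0.888 FPKM. Both were higher in control TAM against resident cells (limma adjusted p = 9.40e-06 and 2.56e-10), and neither passed the test between the TAM groups.

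Translation factors were mostly higher in control TAM as well. Of 9 elongation and termination factors, 8 were higher and 0 lower than in resident cells, with a median log2 change of 0.55. Over all tested genes, 39.0% were higher and 38.1% lower in this comparison. Eif5a, which relieves stalled ribosomes, went from 324 ± 14.2 (SD, n = 4) to 544 ± 12.7 FPKM (n = 3), and the release factor Etf1 from 13.3 ± 1.09 to 30.1 ± 1.73. The elongation factor Eef1a1, a classical oligopyrimidine mRNA, rose less, from 215 to 245 FPKM as means, and Eef2, another, stood at 133 and 132. In cKO-labelled TAM 3 of the 9 were lower than in control TAM and 0 higher, against 19.1% and 20.5% of all tested genes. The 3 were Eef1a1 at 220 FPKM, Eef2 at 117 and Gspt1, a release factor GTPase, at 16.0 against 18.3. Of 21 further mRNAs known to open with such a pyrimidine start, which include Eef1a1, Eef2, Fau and Rack1, 18 were higher and 0 lower in control TAM than in resident cells.

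Of 35 tested initiation factors, 21 were higher and 3 lower in control TAM than in resident cells, against 39.0% and 38.1% of all tested genes. Eif4e, the cap-binding protein, went from 9.82 ± 0.568 (SD, n = 4) to 20.7 ± 0.0856 FPKM (n = 3), and Eif6, which keeps the subunits apart, from 90.8 ± 3.77 to 147 ± 5.38. Between the TAM groups 5 were higher and 6 lower in cKO-labelled cells, smaller shares than the 20.5% and 19.1% of all tested genes. Eif1, which guards start codon choice, was at 115 FPKM in control and 152 in cKO-labelled TAM, and the scaffold Eif4g1 at 21.8 and 17.4.

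Ribosome assembly genes gave 33 higher and 5 lower of 48 tested in control TAM against resident cells, with a median log2 change of 0.28. The shares over all tested genes were 39.0% and 38.1%. Noc4l, a nucleolar protein of small-subunit maturation, went from 16.5 to 37.9 FPKM, Nhp2, of the box H/ACA particles, from 29.3 to 62.0, and Gnl3, which encodes nucleostemin, from 10.4 to 22.3. Sbds, which helps to release Eif6 from new large subunits, fell from 77.1 ± 0.681 (SD, n = 4) to 49.4 ± 3.09 FPKM (n = 3) and stood at 62.8 ± 1.48 in cKO-labelled TAM. Between the TAM groups 6 of the 48 were higher and 5 lower, also smaller shares than over all genes.

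Of 18 regulators of ribosome production, 8 were higher and 7 lower in control TAM against resident cells, shares near the 39.0% and 38.1% of all tested genes. Myc, a transcriptional activator of ribosomal genes, went from 16.8 ± 0.640 (SD, n = 4) to 30.8 ± 1.60 FPKM (n = 3) and was at 28.8 ± 0.914 in cKO-labelled TAM. Mtor was at 1.34, 1.25 and 1.24 FPKM and did not pass the test in any comparison. Larp1, which binds pyrimidine starts, rose from 9.21 to 12.95 FPKM, and Eif4ebp1, the repressor of Eif4e that mTOR phosphorylates, from 58.9 to 95.8. Sesn1, an inhibitor of mTOR signalling, fell from 91.5 to 31.7 FPKM.

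The same counts for 2 other large families of complex subunits are given for scale. Of 76 mitochondrial ribosomal proteins 48 were higher and 4 lower in control TAM against resident cells (median log2 change 0.28), and of 39 proteasome subunits 37 were higher and 0 lower (0.60). Over all tested genes, 39.0% were higher and 38.1% lower in that comparison. Between the TAM groups the mitochondrial family gave 22 higher and 0 lower (0.09) and the proteasome 9 higher and 6 lower (0.02). The shares higher were 28.9% and 23.1%, against 20.5% of all tested genes, of which 19.1% were lower. These differences between families were not tested.

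Other cell types and cycling moved with the same groups. The summed level of 28 listed acinar genes was 35732 to 38032 FPKM in resident, 120 to 129 in control TAM and 463 to 483 in cKO-labelled TAM libraries, and 26 of 27 tested were lower in control TAM than in resident cells, with Amy2a5 listed at 0 throughout control TAM. When libraries were rescaled to a common total that leaves these genes out, the median log2 change of the ribosomal protein genes in control TAM against resident cells was 0.39, beside 0.09 over all genes. The summed neutrophil list stood at 360 to 370, 1330 to 1356 and 1692 to 1862 FPKM, with 10 of 12 higher and 1 lower in control TAM, and the epithelial list at 84.9 to 96.9, 284 to 289 and 294 to 309, with 11 of 12 higher and 1 lower. The fibroblast list stood at 39.8 to 43.0, 172 to 175 and 131 to 136 FPKM, with 6 of 7 tested higher and 0 lower, and the eosinophil list at 185 to 194, 1457 to 1495 and 1498 to 1521, with 5 of 6 higher and 1 lower and Prg2 listed at 0 in all resident libraries. The B cell list stood at 52.1 to 53.5, 7.42 to 8.47 and 20.9 to 21.9 FPKM, with 0 of 6 higher and 5 lower and Mzb1 and Iglc2 listed at 0 in control TAM. The T and NK cell list stood at 31.2 to 33.3, 17.6 to 20.2 and 25.3 to 28.03 (7 of 10 tested higher, 2 lower), and the dendritic list at 199 to 210, 38.6 to 44.3 and 87.3 to 92.0 (0 of 7 tested higher, 5 lower). The sum of 24 cell cycle genes was 176 to 188 FPKM in resident cells, 368 to 371 in control TAM and 265 to 266 in cKO-labelled TAM. Of these 24, 23 were higher and 0 lower in control TAM against resident cells, and 0 higher and 22 lower in cKO-labelled against control TAM. Over all tested genes the shares higher and lower were 39.0% and 38.1% in the former comparison, and 20.5% and 19.1% in the latter. The part of these cell types and of cycling in the ribosomal protein values was not tested.

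Sex-linked transcripts also differed. Eif2s3y, a Y-linked gene, was listed at 0 in 3 resident libraries and at 0.0214 FPKM in the other, and at 0.855 to 1.17 FPKM in the TAM libraries. Xist, the X-linked RNA of X inactivation, was present in all 3 groups, at 1.38 ± 0.142 FPKM (SD, n = 4) in resident cells, 1.21 ± 0.103 (n = 3) in control TAM and 0.980 ± 0.122 (n = 3) in cKO-labelled TAM. The X-linked members Rpl10, Rpl36a, Rpl39 and Rps4x were all higher in both TAM groups than in resident cells. The Y-linked difference runs with the split between resident cells and TAM. The part of sex in the values of these 4 members, and of all other members, was not tested. The p-values throughout measure the spread between these libraries, since the table does not show whether they were made from separate animals.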

How the data were processed

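RNA-seq of 10 libraries in 3 groups was analysed from 1 table of FPKM values deposited by the authors, with gene lengths, scaling and read counting not given in the sources used here. Per the submitters' processing notes, STAR and edgeR were used, with GRCm38 and mm10 as builds, and no version or role is stated. Per the labels' protocols, RNA was amplified with a SMART-Seq kit and made into Nextera XT libraries, so reads of opposite strands cannot be told apart.

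Genes with at least 1 FPKM in at least 3 libraries (11127 of 12535) were fitted on log2(FPKM + 1) with limma 3.58.1 (R 4.3.3), with 3 group means, 7 residual degrees of freedom and a variance trend, and Benjamini-Hochberg adjustment over all tested genes. The fit was tested on simulated data. Whole reads were recovered with the longest GENCODE M21 transcript as length: 85.8% to 87.1% of values of 1 to 200 reads were whole within 0.05. FPKM are not counts, and no count test was run on the recovered reads, because the lengths of the other genes are unknown. The 12 same-group pairs differed by 1.64 to 2.31 times counting noise, and each library was 1 replicate.

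Genes named are, per comparison, the 5 largest rises and falls past the threshold at 10 FPKM or more in the higher group; Rplp0, Rplp1, Rplp2 and Rpsa; each paralog with its namesake; the 5 members of highest and of lowest mean; up to 4 genes per other list and comparison by the same rule, plus genes set by name (Fau, Rack1, Eef1a1, Eef2, Myc, Mtor, Larp1 and Eif4ebp1 among them); and the 3 profiles most like that of the paralog with the largest change. The text gives part of them, and values of a few genes are not reported here. Rpl7a, Rpl10, Rpl11, Rpl27a, Rps4x, Rps10, Rps23 and the markers of cell types and of sex were named outside the rule, after their values were seen. Members and the 18 lists were chosen with earlier results of these data known. Shared 50-base runs were limited to protein-coding transcripts, and promoter motifs chosen, after values were seen. The alternatives were pseudocounts of 0.1 and 0.5, filters, scalings, weights, a replicate block, left-out libraries and a 1.5-fold limit.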

Additional observations from a re-analysis of the deposited data

How the results depend on the processing

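In control TAM against resident macrophages the count of members higher ranged from 49 to 59 over the fits that left out 1 library, that of members lower from 1 to 2 and the median log2 change from 0.27 to 0.33. For cKO-labelled against control TAM these ranges were 4 to 10, 2 to 4 and 0.00 to 0.03, and for cKO-labelled TAM against resident cells 57 to 63, 1 to 1 and 0.32 to 0.40. The count of 1 lower came without control TAM replicate 2, which ends the call of Rpl7l1. Rescaling to a common total gave medians of 0.49 (control TAM against resident), -0.0548 (cKO-labelled against control TAM) and 0.49 (cKO-labelled TAM against resident), and without the acinar genes 0.39 and -0.0538 for the first and second. Both rescalings gave 0 members lower in control TAM against resident cells, and 4 higher and 9 lower in cKO-labelled against control TAM. Over all 11127 tested genes, cKO-labelled against control TAM gave 1496 higher and 3054 lower with the common total. Without the acinar genes it gave 1495 and 3032. Array weights gave 1 lower in the first comparison and 11 higher in the second, and fitting only the 2 TAM groups 13 higher and 5 lower. Over all tested genes, array weights gave 4223 lower in the first comparison and 2490 higher in the second. Fitting only the 2 TAM groups gave 2352 higher and 2176 lower over all tested genes. A filter of 5 FPKM left 60 members, with 1 lower in the first comparison and 0 lower in cKO-labelled TAM against resident cells, as did keeping only members of at least 10 FPKM (1 and 0). A 1.5-fold limit left 10 higher and 0 lower, 0 and 0, and 9 and 0 in the 3 comparisons as ordered above. Over all 11127 tested genes it left 2071 higher and 1742 lower, 303 and 177, and 1985 and 1682. At this limit the share of members was below that of all genes in each comparison and direction. The 11 members with at most 2 pseudogenes, a choice made after seeing the data like that of 10 FPKM, gave 10 and 0, 1 and 1, and 11 and 0.

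Of single genes, Rpl7l1 turned to 0.0845 in control TAM against resident cells when rescaled, and Rpl4 to -0.0194 in cKO-labelled TAM against resident cells under quantile normalization. Of the other values of named genes under an alternative, 46 lost their call and 1152 kept direction and side of the threshold. The causes were not tested. With the replicate number as a block, 54 members were higher and 3 lower in control TAM against resident cells, 7 and 3 in cKO-labelled against control TAM, and 59 and 1 in cKO-labelled TAM against resident cells. The correlations of same-numbered libraries ran from -0.06 to 0.11 over 9 pairs, with 1 above 0.1, and those of other pairs from -0.15 to 0.13. They gave no sign that the numbers pair the libraries, but so few pairs cannot exclude it. Depth limits the 30 members under 10 FPKM most, where 1 library often decides a call.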
